A study of Mus musculus with 4 samples.

Results

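The 10 genes described here, Ttll1, Ttll3, Ttll4, Ttll5, Ttll6, Ttll7, Ttll9, Ttll10, Ttll11 and Ttll12, belong to the tubulin tyrosine ligase-like family, which encodes tubulin glutamylases and glycylases. They were chosen by gene symbol among the 30675 genes named on the array, and each was read by 1 probe set. RNA was taken from freshly dissected whole trachea or whole oviduct of mice of a mixed C57BL/6 x 129 strain. The groups were trachea of mice labelled null for Gemc1 (current symbol Gmnc), trachea of wild-type (WT) mice, oviduct of null-labelled mice and oviduct of WT mice. The tracheas came from males of 39 days and the oviducts from females of 65 days, and each group had 1 Affymetrix array. No group had a replicate, so no difference within a tissue has an error or a test.

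Tubulin glutamylases and glycylases add chains of glutamate or glycine to the tails of tubulin, on the outer face of the microtubule. Such chains are abundant on the axoneme of motile cilia, where they tune dynein motors, severing enzymes and the stability of the cilium. Within the family, some enzymes place the first residue (initiating enzymes) and others lengthen the chain (elongating enzymes). Gemc1 is a geminin relative known to set off the differentiation of multiciliated cells, which line much of the trachea and the oviduct. The comparison asks which of these enzymes had lower transcript levels where that gene is labelled null, and which did not.

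All levels are log2 signals from RMA (robust multi-array average), and every difference is null-labelled minus WT within a tissue. A level of 1 gene is never set against that of another, since probe sets differ in their response. The median over all probe sets lay between 5.91 and 6.00 on the 4 arrays, and the median of 5222 negative-control probe sets between 5.74 and 5.98. The middle 95% of the negative controls ran from about 2.80 to 9.41 on the null-labelled trachea array, so their median is only a rough mark of background. The targeted gene Gmnc stood at 4.63 in null-labelled trachea and 5.90 in WT trachea, and at 8.86 in null-labelled oviduct and 6.11 in WT oviduct. Both trachea levels of Gmnc lay below the negative-control medians of their arrays (5.74 and 5.98), so they say little about the label. The oviduct reading goes against the label. Which part of Gmnc was deleted is not stated in the labels, and every direction below depends on the labels.

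Markers of other cell types differed between the same arrays by at least 2-fold, most of all in trachea. There, 6 of 6 squamous epithelial genes (list median level 11.99 in the null-labelled array, against 5.65 in WT), 9 of 9 skeletal muscle genes (12.42, against 6.44) and 4 of 6 airway basal genes (9.58, against 8.75) were higher. Lower in null-labelled trachea were 9 of 9 airway secretory genes (6.04, against 11.65 in WT), 7 of 7 lymphocyte genes (5.71, against 9.95), 5 of 6 adipocyte genes (6.46, against 9.71), 7 of 9 general epithelial genes (7.39, against 9.08) and 2 of 6 oviduct secretory genes. Of 4 neuronal genes 1 was higher, and 0 of 4 airway identity genes differed so much. In oviduct, 7 of 7 ovary genes (6.36 in the null-labelled array, against 9.94 in WT) and 5 of 6 oocyte genes (5.59, against 6.85) were lower, while 0 of 9 general epithelial genes (10.03, against 9.60) and 0 of 6 oviduct secretory genes passed 2-fold. Of the other lists in oviduct, 1 airway secretory and 1 adipocyte gene were lower and 1 airway secretory and 1 neuronal gene higher. In whole tissue, fewer cells of a type and less RNA per cell cannot be told apart. The part that cell composition has in the Ttll differences was not tested.

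Ttll3 and Ttll6 were the members at least 2-fold lower in null-labelled tissue, and both were so in trachea and in oviduct. The other 8 members differed by less than 2-fold in each tissue. In trachea 2 of 10 members were lower by this measure, beside 7.74% of the 20142 genes past the level filter, while 6.34% of those genes were at least 2-fold higher. The filter keeps a gene in a tissue if either array reads it at or above the median of all that array's probe sets, and all 10 members passed it in trachea. In oviduct 9 members passed, all but Ttll7, and 2 were at least 2-fold lower, beside 2.75% of 19691 genes lower and 0.807% higher. For both tissues together, 2 of 9 members and 1.31% of 18862 genes were at least 2-fold lower in each. No member was at least 2-fold higher in either tissue, and 0.0636% of genes were so in both. At 1.5-fold, 2 of 10 members (13.3% of genes) were lower in trachea, 4 of 9 (5.23%) in oviduct and 2 of 9 (2.24%) in both. At 3-fold these were 1 of 10 (4.31%) in trachea, 2 of 9 (1.36%) in oviduct and 1 of 9 (0.71%), Ttll6, in both.

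**Figure D1:**
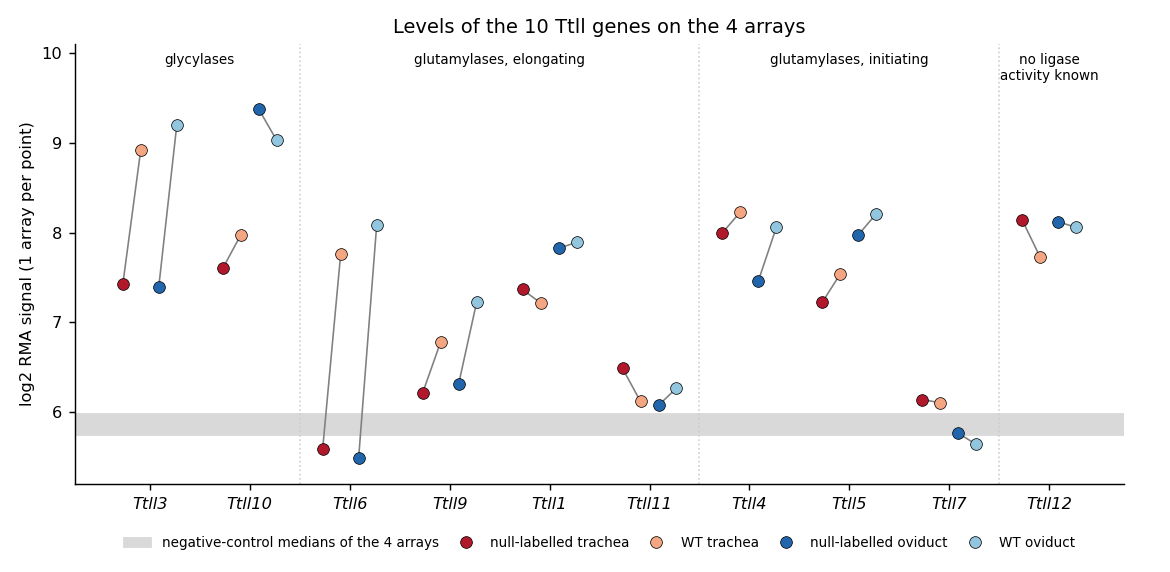
Log2 RMA signal (vertical axis) of each of the 10 genes on the 4 arrays, 1 point per array, with null-labelled and WT arrays of a tissue joined by a line and the genes grouped by known activity. Ttll3 and Ttll6 lie clearly lower on both null-labelled arrays, where Ttll6 falls below the grey band of the negative-control medians (5.74 to 5.98); the band spans the medians of the 4 arrays.

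The glycylases come first. Ttll3, which encodes an initiating glycylase of ciliary tubulin, had a level of 7.42 in null-labelled trachea, against 8.92 in WT trachea. In oviduct it had 7.40 in the null-labelled array, against 9.20 in the WT array. Both null-labelled arrays thus read below both WT arrays, and the levels of the null-labelled arrays differed by only 0.03 between the tissues. The level was 2.83-fold lower in null-labelled trachea (log2 difference -1.50) and 3.48-fold lower in null-labelled oviduct (-1.80). On all 4 arrays Ttll3 stayed at least 1.61 above the negative-control median, so that its remaining signal in null-labelled tissue was well clear of that mark. By RefSeq gene spans Ttll3 overlaps Arpc4, a subunit of the actin-nucleating Arp2/3 complex. Arpc4 had its own probe set, with differences of -0.33 in trachea and -0.01 in oviduct.

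RefSeq promoter windows (build GRCm38.p6, 250 bases before to 50 after a transcript start) were on hand for 8 of the 10 members, all but Ttll1 and Ttll11. They are shown for the members that differed most, Ttll3, Ttll6 and Ttll9, so that the motifs of the ciliary transcription factors can be read in place. Capitals mark matches, on either strand, to GTTGCC (the core of RFX sites), CAACTG (a core of MYB sites), GTAAACA (a core of forkhead sites) or TTCCCGC (a core of E2F sites). The Ttll3 window below is the second of its pair, at chr6:113392213-113392512 on the plus strand. It holds 1 RFX core, which starts 65 bases before the transcript start, and the other window, at chr6:113389010-113389309, holds none of these motifs.
Ttll3: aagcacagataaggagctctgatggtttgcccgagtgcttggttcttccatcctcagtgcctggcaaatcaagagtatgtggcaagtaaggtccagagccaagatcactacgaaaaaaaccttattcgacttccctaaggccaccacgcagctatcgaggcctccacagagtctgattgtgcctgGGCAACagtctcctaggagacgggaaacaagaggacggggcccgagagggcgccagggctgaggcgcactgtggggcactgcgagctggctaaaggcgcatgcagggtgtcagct

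Ttll10, an enzyme that lengthens glycine chains in mouse, had 7.60 in null-labelled trachea and 7.97 in WT trachea. In oviduct it had 9.38 in the null-labelled array and 9.03 in the WT array. The differences of -0.37 and 0.35 had opposite signs, and the larger contrast was between tissues: both oviduct arrays read above both trachea arrays. Ttll8, the other initiating glycylase and not among the 10 genes, was dim throughout. Its level was 5.69 in null-labelled trachea and 5.97 in WT trachea, and 5.78 in null-labelled oviduct and 6.23 in WT oviduct. Its probe set lists a further gene identifier that RefSeq's table does not hold, which makes the reading less certain.

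Among the elongating glutamylases, Ttll6 showed the largest differences of all members. Ttll6 encodes a glutamylase that lengthens glutamate chains on ciliary microtubules. Its level was 5.60 in null-labelled trachea, against 7.76 in WT trachea. In oviduct its level was 5.50 in the null-labelled array, against 8.08 in the WT array. Both null-labelled arrays lay below their negative-control medians of 5.74 and 5.79, while the WT arrays stood 1.78 and 2.31 above theirs. The measured differences of -2.17 and -2.58 are therefore limited by background. With the negative-control median in place of the dim level, Ttll6 was 4.05-fold lower in null-labelled trachea and 4.89-fold lower in null-labelled oviduct. These folds are not strict bounds, since the background of the WT array was left as it was. In trachea the WT array had the higher negative-control median (5.98, against 5.74). Among genes past the filter, 2.40% had a difference as low or lower in trachea and 0.386% in oviduct. Ttll6 overlaps Calcoco2, an autophagy receptor gene, in RefSeq's spans. Calcoco2 differed by -0.51 in trachea and by -1.06 in oviduct, and whether the probe sets share transcripts was not tested.

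The Ttll6 window lies at chr11:96133536-96133835 on the plus strand. It holds a pair of MYB cores, which start 131 and 73 bases before the transcript start, and no RFX core.
Ttll6: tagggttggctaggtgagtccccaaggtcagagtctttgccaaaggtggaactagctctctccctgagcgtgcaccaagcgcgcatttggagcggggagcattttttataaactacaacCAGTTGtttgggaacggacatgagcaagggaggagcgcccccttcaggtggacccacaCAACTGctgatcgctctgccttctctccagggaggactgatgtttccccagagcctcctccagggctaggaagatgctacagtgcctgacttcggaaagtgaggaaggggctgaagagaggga

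Ttll9, a glutamylase that mice need for normal sperm flagella, differed in the same direction by less than 2-fold. Its level was 6.21 in null-labelled trachea and 6.78 in WT trachea. In oviduct its level was 6.31 in the null-labelled array and 7.22 in the WT array. Both null-labelled arrays again read below both WT arrays. The level was 1.48-fold lower in trachea (log2 difference -0.57) and 1.88-fold lower in oviduct (-0.91). The null-labelled levels stood 0.47 and 0.52 above the negative-control medians. Genes with a difference as low or lower made up 13.8% of those past the filter in trachea and 3.13% in oviduct. Dusp15, a phosphatase gene whose RefSeq span overlaps Ttll9, differed by 0.15 in trachea and -0.55 in oviduct.

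The Ttll9 window lies at chr2:152962235-152962534 on the plus strand and holds a pair of RFX cores, which start 118 and 11 bases before the transcript start.
Ttll9: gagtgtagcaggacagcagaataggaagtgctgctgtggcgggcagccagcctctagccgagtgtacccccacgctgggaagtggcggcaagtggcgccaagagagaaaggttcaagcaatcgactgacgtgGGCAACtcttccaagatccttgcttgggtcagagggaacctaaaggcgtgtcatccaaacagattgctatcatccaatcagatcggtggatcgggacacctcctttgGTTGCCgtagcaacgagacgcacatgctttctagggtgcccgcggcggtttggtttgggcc

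Over all 32851 windows in the table, 12.5% hold the RFX core, 13.7% the MYB core, 3.65% the forkhead core and 4.6% the E2F core. Of the 9 windows of the members, 4 hold the RFX core (Ttll3, Ttll5, Ttll9 and Ttll10), 3 the MYB core (Ttll5, Ttll6 and Ttll10), 1 the forkhead core (Ttll10) and 0 the E2F core. The RFX and MYB matches in Ttll5 and Ttll10 overlap each other. The members with the RFX core include Ttll5 and Ttll10, which were under 2-fold different. No link between a motif and a difference was tested. An X-box in the strict form of 2 RFX cores that face each other 2 letters apart, with 1 free letter in each, was also searched. It was found in 0 of the 9 windows and in 0.451% of all windows. Looser forms were not searched. In the Ttll9 window the stretch GTTGCCgtagcaac, just before the transcript start, misses the strict form by 1 letter.

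Ttll1, the catalytic subunit of a glutamylase complex whose loss in mice disturbs the beat of airway cilia, hardly differed. Its level was 7.37 in null-labelled trachea and 7.22 in WT trachea, and 7.83 in null-labelled oviduct and 7.89 in WT oviduct. The differences were 0.15 and -0.06. Both oviduct arrays read above both trachea arrays, so for Ttll1 the arrays sorted by tissue and not by genotype label. Ttll1 read 1.23 to 2.12 above the negative-control medians on the 4 arrays.

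Ttll11, another elongating glutamylase, stood near background, at 6.49 in null-labelled trachea and 6.12 in WT trachea, and at 6.08 in null-labelled oviduct and 6.27 in WT oviduct. Its differences of 0.37 and -0.19 had opposite signs. Ttll13, a further elongating enzyme outside the 10 genes, had 5.86 in null-labelled trachea and 6.32 in WT trachea. In oviduct Ttll13 had 6.52 in the null-labelled array and 6.81 in the WT array, so that its differences were -0.46 and -0.29.

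The initiating glutamylases were less than 2-fold different in both tissues. Ttll4, which acts on tubulin and also on nucleosome assembly proteins, had 8.00 in null-labelled trachea and 8.23 in WT trachea. In oviduct Ttll4 had 7.47 in the null-labelled array and 8.06 in the WT array, 1.51-fold lower (log2 difference -0.60), the largest difference after those of Ttll6, Ttll3 and Ttll9. Ttll5, known for roles in sperm and photoreceptors, had 7.23 in null-labelled trachea and 7.54 in WT trachea. In oviduct Ttll5 had 7.98 in the null-labelled array and 8.21 in the WT array. Its differences of -0.32 and -0.24 pointed the same way, but both oviduct arrays read above both trachea arrays. Ttll7, the main initiating glutamylase of neuronal beta-tubulin, had 6.14 in null-labelled trachea and 6.11 in WT trachea, and 5.77 in null-labelled oviduct and 5.64 in WT oviduct. Both oviduct levels of Ttll7 were below the negative-control medians, and no direction is read from either tissue. When the arrays were centred on their medians its trachea difference changed sign.

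Ttll12, a divergent family member for which no glutamylase or glycylase activity is established, was the member with the largest positive difference. It had 8.14 in null-labelled trachea and 7.72 in WT trachea, and 8.12 in null-labelled oviduct and 8.06 in WT oviduct. The differences were 0.41 in trachea and 0.06 in oviduct, a 1.33-fold higher and a 1.04-fold higher level.

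To place the members beside ciliary genes, a list of 72 measured genes of motile cilia (dynein arms, their assembly factors, radial spokes, central pair, tektins and related proteins) was read in the same way. Of its 69 genes past the filter in both tissues, 55 (79.7%) were at least 2-fold lower in each, and the list medians were -1.79 in trachea and -1.88 in oviduct. The 10 Ttll genes had medians of -0.27 in trachea and, over the 9 past the filter, -0.24 in oviduct, against 0.03 and 0.05 over all genes. Ttll3, at -1.50 and -1.80, lay close to the cilia medians, and Ttll6, at -2.17 and -2.58, lay below them. Genes in the middle of the cilia list were Dnah1, an inner dynein arm heavy chain (-2.03 and -1.72), Ak8, an adenylate kinase (-1.90 and -1.95), and Cfap74, a central pair protein (-1.73 and -2.17). The middle 90% of the cilia list ran from -3.90 to -0.54 in trachea and from -4.34 to -0.40 in oviduct. Ttll3, Ttll6 and Ttll9 lay in this range in both tissues, as did 2.98% of all genes past the filter in both. Ttll4 lay in it in oviduct alone. Over the negative controls the standard deviation of the same difference was 0.60 in trachea and 0.59 in oviduct. Ttll9 in trachea (-0.57) and Ttll4 in oviduct (-0.60) differed by no more than about that much.

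**Figure D2:**
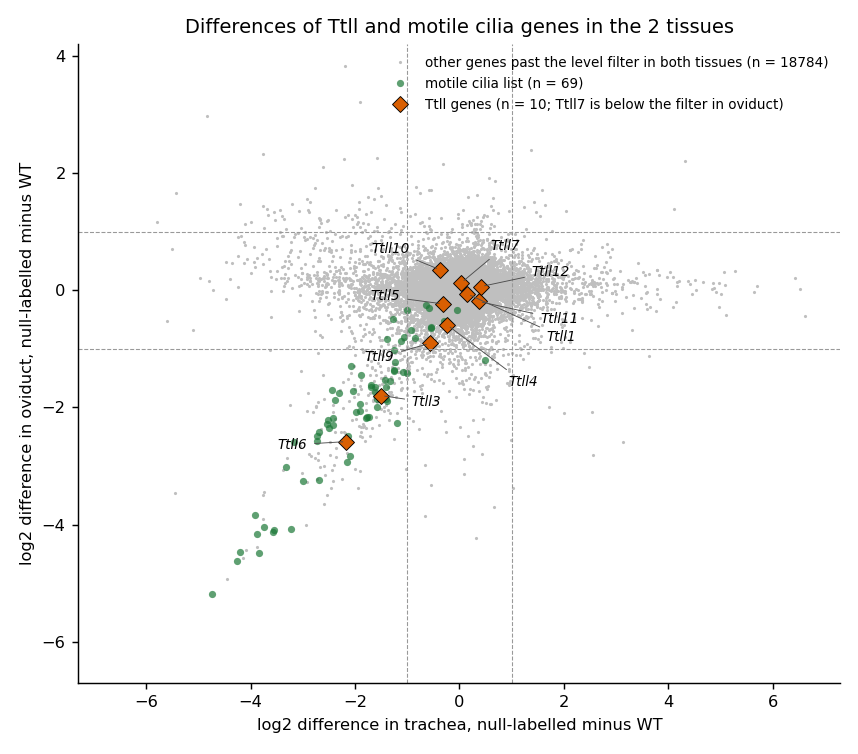
Log2 difference, null-labelled minus WT, in trachea (horizontal axis) and in oviduct (vertical axis), 1 point per gene, with dashed lines at 2-fold. Ttll6 (-2.17, -2.58) and Ttll3 (-1.50, -1.80) lie among the green motile cilia genes, and Ttll9 (-0.57, -0.91) lies among those with smaller differences. The other 7 Ttll genes lie in the grey mass of all genes, where a few cilia genes such as Gas8 (-0.05, -0.34) lie too.

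A limma fit over the 4 arrays, with tissue as a block and genotype label as the effect estimated the mean difference of the tissues. With 2 arrays per genotype it has 1 residual degree of freedom, which measures how far the tissues disagree, and a prior of 1.77. No member passed Benjamini-Hochberg 0.05 over the 20971 genes tested, and neither did any other gene (0%). The smallest adjusted p in limma over all genes tested was 0.511. Among the 10 members the smallest was 0.545, for Ttll6 (mean log2 difference -2.38, SE 0.194, lower in 2 of 2 tissues), followed by 0.566 for Ttll3 (-1.65, SE 0.173, lower in 2 of 2). Ttll9 (-0.74, SE 0.180, lower in 2 of 2) and Ttll4 (-0.41, SE 0.184) had an adjusted p of 0.828 each. At an unadjusted p under 0.05, 3 of 10 members were lower, namely Ttll6, Ttll3 and Ttll9, and 0 were higher. Over all genes tested, 567 (2.7%) were lower and 168 (0.801%) higher at that threshold, and chance alone gives about 1049 in all. The SE of Ttll6 rests on levels below the negative-control medians.

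Between WT tissues the members differed little. WT oviduct read above WT trachea for 8 of the 10 genes, a count given as description only, with no share over all genes beside it. The median over all probe sets was also higher on the WT oviduct array (5.97, against 5.91 in WT trachea). Only Ttll10 passed 2-fold (2.08-fold higher in WT oviduct), beside 4.66% of genes at least 2-fold higher and 6.53% at least 2-fold lower in WT oviduct. Ttll1 and Ttll5 were 1.60-fold and 1.59-fold higher in WT oviduct, with differences of 0.67 each. In null-labelled tissue Ttll10 differed by 1.77 between oviduct and trachea and Ttll3 by -0.03. Tissue, sex and age cannot be told apart in this contrast. The spread within a group is unknown, so no order among neighbouring levels of a gene is tested.

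The genes with the most similar profiles were found by the Euclidean distance between levels centred on each gene's mean, over the 4 arrays and 18861 other genes past the filter in both tissues. Nearest to Ttll3 was Agbl2, a carboxypeptidase of the family that removes glutamate chains from tubulin (distance 0.0573). Next came Cfap221, a central pair protein (0.0663), and Ccdc170, a microtubule-associated protein (0.123). Both null-labelled levels of Agbl2 and of Cfap221, unlike those of Ttll3, lay below the negative-control medians, so background limits these distances. Nearest to Ttll6 were Drc7, a subunit of the nexin-dynein regulatory complex (0.0770), the gene listed as 1110017D15Rik (0.122) and Ttc21a, a relative of intraflagellar transport proteins (0.139). Ttll6 was 165th in distance from Ttll3, and Ttll3 was 87th from Ttll6. With 4 arrays many genes share such a profile, and the distances are a description only.

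The enzymes that shorten glutamate chains were read next. Of the deglutamylases, 5 of the 6 listed genes were measured. Agbl2 was lower in both tissues, at 5.11 in null-labelled trachea and 6.61 in WT trachea, and at 5.10 in null-labelled oviduct and 6.82 in WT oviduct. Its differences were -1.50 and -1.72. Both null-labelled levels lay below the negative-control medians. With those medians in their place Agbl2 was 1.83-fold lower in trachea, short of 2-fold, and 2.05-fold lower in oviduct. Its WT trachea level stood only 0.63 above the negative-control median of its own array. Agbl4, a deglutamylase that shortens long chains, was dim, with 5.11 in null-labelled trachea and 6.01 in WT trachea, and 5.45 in null-labelled oviduct and 6.43 in WT oviduct, and differed by -0.90 and -0.98. Both null-labelled levels of Agbl4 lay below the negative-control medians. With those medians in their place Agbl4 was 1.20-fold lower in trachea and 1.55-fold lower in oviduct. Its WT trachea level stood only 0.03 above the negative-control median of its own array. Agbl3 differed by -0.83 in trachea, where it did not pass the filter, and by -0.45 in oviduct. Agbl5, which removes the glutamate at the branch point, differed by -0.70 in trachea and -0.21 in oviduct. Agbl1 stood apart, at 8.92 in null-labelled trachea and 5.32 in WT trachea. With the WT array's negative-control median in place of the WT level, Agbl1 was 7.64-fold higher. In oviduct Agbl1 was at 5.53 in the null-labelled array and 5.35 in the WT array, below the negative-control medians.

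Over 7 lists of other tubulin-modifying enzymes, their partners, severing enzymes and tubulins, 37 of 48 genes were measured and 36 passed the filter in either tissue. Of these, 6 were at least 2-fold different in either tissue and either direction, beside 15.2% of the 20971 genes past the filter, a share close to that of the lists. The 6 were Agbl1, Agbl2, Ttll2, Vash2, Tuba4a and Tuba8. Ttll2, a further family member, had 6.59 in null-labelled trachea and 5.17 in WT trachea. With the WT array's negative-control median in place of the WT level, Ttll2 was 1.52-fold higher, short of 2-fold. In oviduct Ttll2 had 8.53 in the null-labelled array and 7.81 in the WT array, a difference of 0.73. Ttl, the ligase that puts tyrosine back on alpha-tubulin, differed by 0.28 and -0.24. Of the partners of Ttll1 and Ttll6, 0 of 6 measured genes passed 2-fold in either tissue. They included Tpgs1, a subunit of the Ttll1 complex, at 0.21 and 0.06, Tpgs2, another subunit, at -0.19 and -0.47, and Cep41, a centrosomal protein tied to the ciliary entry of Ttll6, at -0.41 and -0.23. Cstpp1, a further gene of that list, had no probe set named here.

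The substrates and the other modifications of tubulin followed. Of 12 measured tubulins, 2 were at least 2-fold higher in null-labelled trachea and 0 in null-labelled oviduct. Tuba8 had 9.97 in null-labelled trachea and 7.45 in WT trachea (5.72-fold higher), and 6.55 in null-labelled oviduct and 6.62 in WT oviduct. Tuba4a had 11.10 in null-labelled trachea and 9.25 in WT trachea (3.60-fold higher), and 8.46 in null-labelled oviduct and 7.97 in WT oviduct. Vash2, a tubulin detyrosinating enzyme, was 3.52-fold higher in null-labelled trachea (8.09, against 6.28 in WT trachea) and differed by 0.08 in oviduct. On the same null-labelled trachea array 6 of 6 squamous markers (list median difference 6.37 in trachea), 9 of 9 skeletal muscle markers (4.53) and 4 of 6 basal markers (1.96) were higher. In oviduct the medians of the markers past the filter were 0.08 for squamous, 0.01 for skeletal muscle and 0.10 for basal genes. Their part in these trachea readings was not tested, and the difference between the tissues was not tested either. Tuba1a (-0.68 and -0.86) and Tubb4b (-0.30 and -0.81), tubulins of ciliary axonemes, were lower by less than 2-fold. Tubulin genes are close in sequence, so their probe sets may share signal. Atat1, the acetyltransferase of alpha-tubulin, differed by -0.32 in trachea and 0.44 in oviduct. Among severing enzymes Spast, which encodes spastin, had the largest difference, 0.68 in trachea and -0.05 in oviduct.

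**Figure D3:**
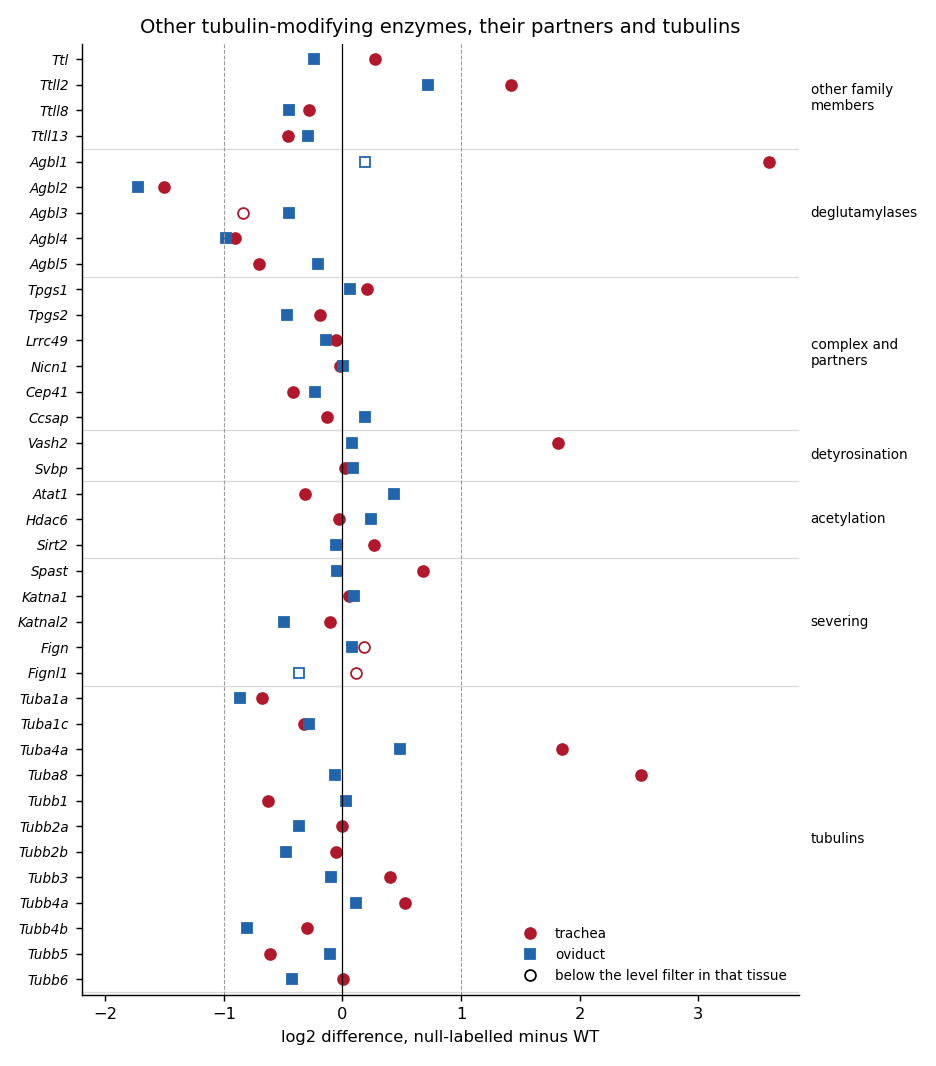
Log2 difference, null-labelled minus WT (horizontal axis), of each measured gene of the 7 accessory lists, with circles for trachea, squares for oviduct, open symbols for levels below the filter in that tissue and dashed lines at 2-fold. Agbl2 lies below -1 in both tissues (-1.50 and -1.72), while Agbl1 (3.59), Tuba8 (2.52), Tuba4a (1.85), Vash2 (1.82) and Ttll2 (1.42) lie above 1 in trachea alone.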

How the data were processed

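Biotin-labelled targets from total RNA were hybridised to 1-colour arrays, per the labels' protocols. RMA made the values, per the submitters' processing notes, with no version or settings stated. The deposited values proved to be a second log2 of the RMA signal: raising 2 to each value gave decimals of 6 significant digits (relative tolerance 1e-09) in 100% of cells, and these were used as log2 signal. Of 65956 probe sets that were not controls, 31223 had 1 gene in the platform annotation, updated through RefSeq (GRCm38.p6), and each gene took its probe set with the highest mean.

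Within a tissue, genes past the level filter (percentile 50) were counted by size at 2-fold. For a fold given with the negative-control median in place of a level, a level below its own array's median was replaced by that median. The level on the brighter array was left as it was, so such a fold is not a strict bound. The fit over both tissues used limma 3.58.1 in R 4.3.3 with Benjamini-Hochberg adjustment. It was also run on simulated data with equal noise for all genes, which does not show its power on these arrays. Array number limits all precision. Alternatives covered fold threshold, filter, probe set, scaling, background mark and fit settings.

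Members and lists were chosen with earlier results of these data known. By rule, the text names all 10 members and 4 other family genes, accessory genes past 2-fold (or a list's largest difference), the 3 cilia genes nearest the list median and the 3 nearest profiles. Agbl3, Agbl4, Agbl5, Tpgs1, Cep41, Tuba1a, Tubb4b, Gas8 and the overlapping genes were added after their values were seen. Marker lists are given as counts and medians.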

Additional observations from a re-analysis of the deposited data

Results flagged for a closer look

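The members Ttll1, Ttll10 and Ttll11 differed in opposite directions in the tissues, with 1 pair of arrays each. The oviduct difference minus the trachea difference was -0.21 for Ttll1, 0.72 for Ttll10 and -0.56 for Ttll11 on the log2 scale. None of the differences behind them reached 2-fold, and the difference between tissues was not tested.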

How the results depend on the processing

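The members lower in null-labelled tissue numbered 2 in trachea, in oviduct and in both under every alternative of scaling, background mark and level filter that was run. Each member has 1 probe set, so the probe set rules could not change these counts. The fold threshold moved these counts. At 3-fold there was 1 member lower in trachea and 1 in both tissues, since Ttll3 was 2.83-fold lower in trachea. At 1.5-fold there were 4 members lower in oviduct, with Ttll4 and Ttll9 added. The accessory genes different in either tissue numbered 13 at 1.5-fold, against 6 at 2-fold, and 5 with levels raised to the negative-control medians. The share over all genes was 15.2% at 2-fold and was not taken at 1.5-fold, so the 13 is a description only. The fit called 0 members with an intensity trend, without the tissue term, without the filter, with centred arrays, with probe sets averaged and with raised levels. The smallest adjusted p of a member in limma ranged from 0.238 to 0.545 over these fits, and 3 members were lower at an unadjusted p under 0.05 in each. Raising levels to the negative-control medians gave Ttll6 differences of -2.02 in trachea and -2.29 in oviduct. Of 100 member differences under other scalings, probe set rules or the background mark, 97 moved by at most 0.1 and 1 changed sign, that of Ttll7 in trachea. The probe set rules could move none of them, and the background mark only those with a level below it. The 97 therefore overstates how stable the differences are. No paired analysis was possible because each group has 1 array, and leaving out an array leaves the blocked fit no residual degree of freedom and only the other tissue's difference. Levels near the negative-control median, as for Ttll6, Ttll7, Ttll9 and Ttll11, limit what a difference can show.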
